A study of Mus musculus with 6 samples.

Results

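The collagen genes are the mouse genes whose symbol names the chain of a collagen, apart from Col7a1 and Col17a1, with at least 10 counts summed over the libraries. The pattern matched 43 symbols, 2 were left out by name, 3 (Col2a1, Col9a1 and Col10a1) had too few counts, and 38 of the 34590 symbols in the count tables were members. Of these, 10 encode fibrillar collagens, 8 encode chains of basement membrane collagens and 20 encode other collagens. RNA was measured by total RNA sequencing after ribosomal RNA removal in skin biopsies from the C57BL/6 strain, 3 from Tnip1+/+ mice (wild type) and 3 from Tnip1-/- mice (knockout), and all 6 mice had imiquimod applied to the skin for 2 days. Tnip1 encodes a ubiquitin-binding protein that restrains NF-kappaB signalling, and imiquimod is a Toll-like receptor 7 agonist used to provoke psoriasis-like inflammation in mouse skin. The labels give neither the kind of Tnip1 allele nor the age or sex of the mice, and the series holds no untreated group, so the comparison is between genotypes under imiquimod. 

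Collagens are triple helices of 3 alpha chains, and each chain has its own gene. Fibrillar collagens, mainly types I, III and V in skin, build the tension-bearing fibres of the dermis. Type IV forms the sheet-like network of basement membranes under the epidermis and around vessels, muscle fibres, nerves and fat cells, with types XV and XVIII associated with it. Collagens of the FACIT group sit on the surface of fibrils, type VI forms beaded filaments between cells and fibrils, type VIII forms hexagonal networks, and types XIII, XXIII and XXV span the cell membrane. Most dermal collagen is made by fibroblasts, while basement membrane chains also come from keratinocytes, endothelial cells, muscle and Schwann cells.

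Gene counts ran from 24701074 to 31005554 in the wild type libraries and from 19529970 to 25864730 in the knockout libraries. Tnip1 was at 26.4 ± 1.55 CPM (counts scaled to a common library size) in wild type and 1.81 ± 0.230 in knockout (SD, n = 3 each), 6.84% of the wild type mean, which matches the labels. The submitters' library codes carry the letters IMQ in the wild type libraries and NORM in the knockout libraries, although the titles and treatment labels give imiquimod for all 6, so anything that goes with these codes cannot be told apart from genotype. Counts of the Y-linked genes Ddx3y and Eif2s3y exceeded those of Xist in wild type replicate 1 and in knockout replicates 1 and 2. These are called the libraries with Y-linked transcripts below, 1 of 3 in wild type and 2 of 3 in knockout. Xist exceeded them in the other 3, but wild type replicate 2 also held 56 Ddx3y and 27 Eif2s3y counts beside 20548 of Xist. Wild type replicate 3 held 1 and 3, and knockout replicate 3 held 1 and 1. Wild type replicate 1 stood apart for the most abundant fibrillar chains and wild type replicate 3 for hair follicle genes. For many of the genes these libraries touch, values without them are also given. 

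The type IV chains are encoded by 3 pairs of neighbouring genes on opposite strands, and the pairs differed in which members were called between the genotypes. In the GENCODE GRCm38 annotation the starts lie 21 bases apart for Col4a1 and Col4a2, 72 for Col4a3 and Col4a4, and 1309 for Col4a5 and Col4a6. The promoter windows of the first and the third pair are shown because neither member of the first and both members of the third were called lower in knockout. Each window runs from 250 bases before to 50 bases after the RefSeq gene start (GRCm38.p6), 5′ to 3′ on the gene's strand, with every GC box (GGGCGG, or CCGCCC on the other strand) and CCAAT box (CCAAT, or ATTGG on the other strand) in capitals. Col4a1 lies on the minus strand (chr8:11312777-11313076) and Col4a2 on the plus strand (chr8:11312555-11312854), so these windows share sequence. Col4a5 lies on the plus strand (chrX:141475169-141475468) and Col4a6 on the minus strand (chrX:141474027-141474326), and these windows do not overlap.
Col4a1: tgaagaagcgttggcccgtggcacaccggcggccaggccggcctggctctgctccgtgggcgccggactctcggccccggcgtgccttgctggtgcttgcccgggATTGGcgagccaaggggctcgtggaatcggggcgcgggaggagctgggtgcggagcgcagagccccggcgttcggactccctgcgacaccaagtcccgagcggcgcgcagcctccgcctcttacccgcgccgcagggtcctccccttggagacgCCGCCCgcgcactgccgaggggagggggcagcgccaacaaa
Col4a2: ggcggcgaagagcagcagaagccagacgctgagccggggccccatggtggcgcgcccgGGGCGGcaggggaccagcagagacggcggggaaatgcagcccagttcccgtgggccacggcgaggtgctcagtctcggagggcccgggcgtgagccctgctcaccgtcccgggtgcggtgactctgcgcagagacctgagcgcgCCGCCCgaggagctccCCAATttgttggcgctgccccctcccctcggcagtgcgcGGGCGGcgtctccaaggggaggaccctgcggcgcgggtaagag
Col4a5: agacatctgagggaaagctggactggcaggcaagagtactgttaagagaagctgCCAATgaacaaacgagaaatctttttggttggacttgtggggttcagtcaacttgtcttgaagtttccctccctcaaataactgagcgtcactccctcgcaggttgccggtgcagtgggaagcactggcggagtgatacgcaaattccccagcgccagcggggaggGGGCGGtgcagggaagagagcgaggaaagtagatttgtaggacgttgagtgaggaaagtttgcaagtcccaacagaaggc
Col4a6: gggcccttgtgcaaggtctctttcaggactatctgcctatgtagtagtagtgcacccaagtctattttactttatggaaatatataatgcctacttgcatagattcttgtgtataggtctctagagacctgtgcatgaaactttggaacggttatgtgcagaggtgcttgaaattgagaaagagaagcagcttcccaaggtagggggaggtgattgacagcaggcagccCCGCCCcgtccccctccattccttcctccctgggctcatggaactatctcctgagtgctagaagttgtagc
The RefSeq table held windows for 31 of the 38 collagen genes, 33 windows in all. A GC box was present in 22 of the 33 (66.67%), against 35.66% of all 32851 windows of the same length in the table, and a CCAAT box in 10 (30.3%), against 37.41%. Neither motif overlaps the other in its letters, and a match in a window is a description of its letters only.

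Across the collagen genes, the largest falls in knockout skin were in Col4a6 and Col11a1 and the largest rises in Col6a4 and Col12a1, while the 3 most abundant genes, Col1a1, Col1a2 and Col3a1, were not called. Testing used the quasi-likelihood method of edgeR, p-values were Benjamini-Hochberg adjusted over all 16691 genes past a filter on low counts, and a call means an adjusted p below 0.05. Of the 38 collagen genes 37 passed the filter; Col9a2 did not, with 12 counts over all libraries. In knockout, 4 were called higher (Col11a2, Col18a1, Col12a1 and Col6a4), 11 were called lower (Col11a1, Col24a1, Col4a3, Col4a5, Col4a6, Col15a1, Col14a1, Col16a1, Col6a6, Col28a1 and Col8a2) and 22 were not called. Over all genes tested, 45.1% were called either way, 22.3% higher and 22.7% lower, so the 15 of 37 collagen genes called were close to the background in number, with fewer higher and more lower than in it. The median log2 fold change, knockout minus wild type, was -0.53 over the 37 genes and -0.04 over all genes. It was below 0 for 30 and above 0 for 7 with this scaling (trimmed mean of M-values, TMM), but with libraries scaled to dermal fibroblast markers instead the median was 0.30, with 8 collagen genes higher and 2 lower. On that scale the median of all genes was 0.78, and 57.6% of all genes were higher and 5.63% lower. There Col18a1, Col11a2, Col12a1 and Col6a4 were still called higher and Col4a6 and Col11a1 still lower, the other calls were lost, and the value of Col14a1 turned to 0.15. Library totals and upper-quartile factors gave medians of -0.69 and -0.61 for the collagen genes, where all genes had -0.19 and -0.12, and higher calls were 34.1% and 42% of all calls, against 49.6% with TMM and 91.1% with fibroblast markers. In 19 of the 37 the 3 wild type and 3 knockout values did not overlap, 14 with the knockout below and 5 with it above, against 59.8% of all genes.

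**Figure D1:**
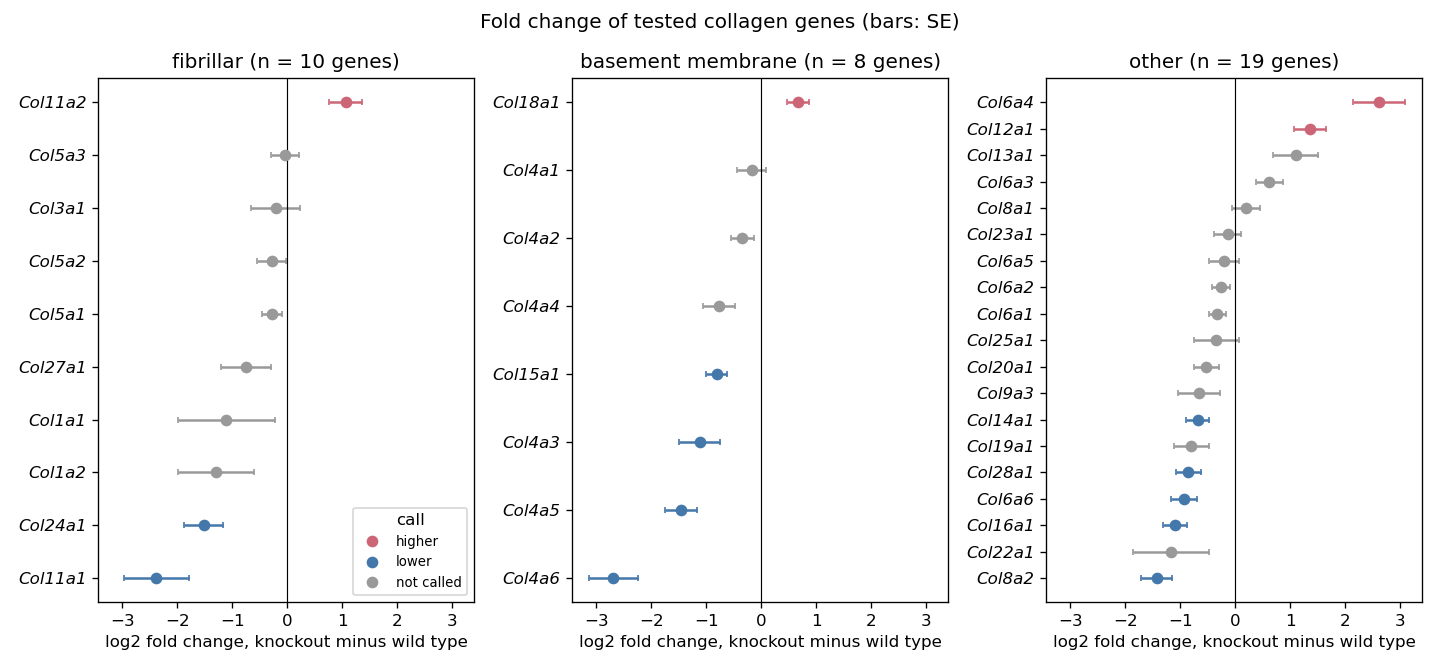
Log2 fold change (knockout minus wild type, x axis, bars SE) of the 37 tested collagen genes, by class, coloured by call. Col4a6 and Col11a1 lie farthest to the left and Col6a4 farthest to the right, and Col1a1 and Col1a2 have the widest bars of the abundant genes.

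These are bulk biopsies, so fewer cells of a type and less RNA per cell cannot be told apart, and the cell type markers moved with genotype too. All 12 skeletal muscle markers were called lower in knockout, with summed levels of 18225, 29749 and 17455 CPM in wild type and 9785, 7102 and 8917 CPM in knockout. Of 14 dermal fibroblast markers, a list without collagens, 7 were lower and none higher (1320 to 1858 CPM against 859 to 921 CPM). Their log2 fold changes were below 0 for 10 and above 0 for 4, so they did not move as a whole. The fibroblast marker scale used their summed counts, in which the abundant markers weigh most. Of 8 keratinocyte markers 4 were higher and 1 lower. Lower calls also held for 6 of 7 Schwann cell, 4 of 8 pericyte and smooth muscle and 3 of 8 endothelial markers (2 higher). Of 7 tested neutrophil and macrophage markers 4 were higher. All these marker counts are to be read against 22.7% of all genes lower and 22.3% higher. Of 8 adipocyte markers 2 were called lower, a share close to that of all genes. All 8 had log2 fold changes below 0, and in 7 the groups did not overlap, against 59.8% of all genes. When a score of muscle and fat markers entered the model, which left 996 higher (5.97%) and 835 lower (5.0%) calls over all genes, 3 collagen calls were left, Col12a1 higher and Col4a5 and Col4a6 lower. All 12 lost calls kept their sign and had a larger SE, and in 8 of them the log2 fold change was as large or larger, as for Col11a1 (-2.95), Col8a2 (-1.77), Col14a1 (-1.07), Col18a1 (0.94) and Col6a4 (2.62). It was smaller in 4, Col15a1 (-0.53), Col24a1 (-1.08), Col28a1 (-0.72) and Col4a3 (-0.21). The score was 8.42, 9.31 and 8.66 in wild type and 7.41, 4.57 and 7.32 in knockout, without overlap. It went with genotype, so kept or lost calls in this fit cannot tell the 2 apart. Of 8 cartilage markers 2 could be tested, and the list summed to 0.678 to 4.11 CPM, with Ucma at 0 counts in every library. The part of these cell types in the collagen differences was not tested.

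The fibrillar genes led the collagen RNA. Per kilobase of exon sequence, Col3a1 had the highest level in wild type (289 CPM per kb, mean of 3), followed by Col1a2 (175) and Col1a1 (145), and the order was the same in knockout, at 249.9, 71.6 and 67.3 CPM per kb. Col3a1 was above Col1a2, and Col1a2 above Col1a1, in each of the 6 libraries. Per kb, Col1a2 and Col1a1 were close in knockout, at 85.3 and 81.8 CPM per kb in replicate 1 and 57.8 and 56.1 in replicate 3. Their wild type gap ranged from 389 against 359 CPM per kb in replicate 1 to 59.4 against 27.5 in replicate 2. This closeness depends on the lengths used, 12.4 kb for Col1a2 and 6.56 kb for Col1a1. In counts, the ratio of Col1a1 to Col1a2 was 0.506, 0.471 and 0.512 in knockout. Col6a1 (66.2 CPM per kb) and Col4a1 (47.2 CPM per kb) came next in wild type, and Col6a4 was at the bottom at 0.017 CPM per kb. Lengths are unions of annotated exons in GENCODE, which can include retained introns and differ from the annotation behind the counts.

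**Figure D2:**
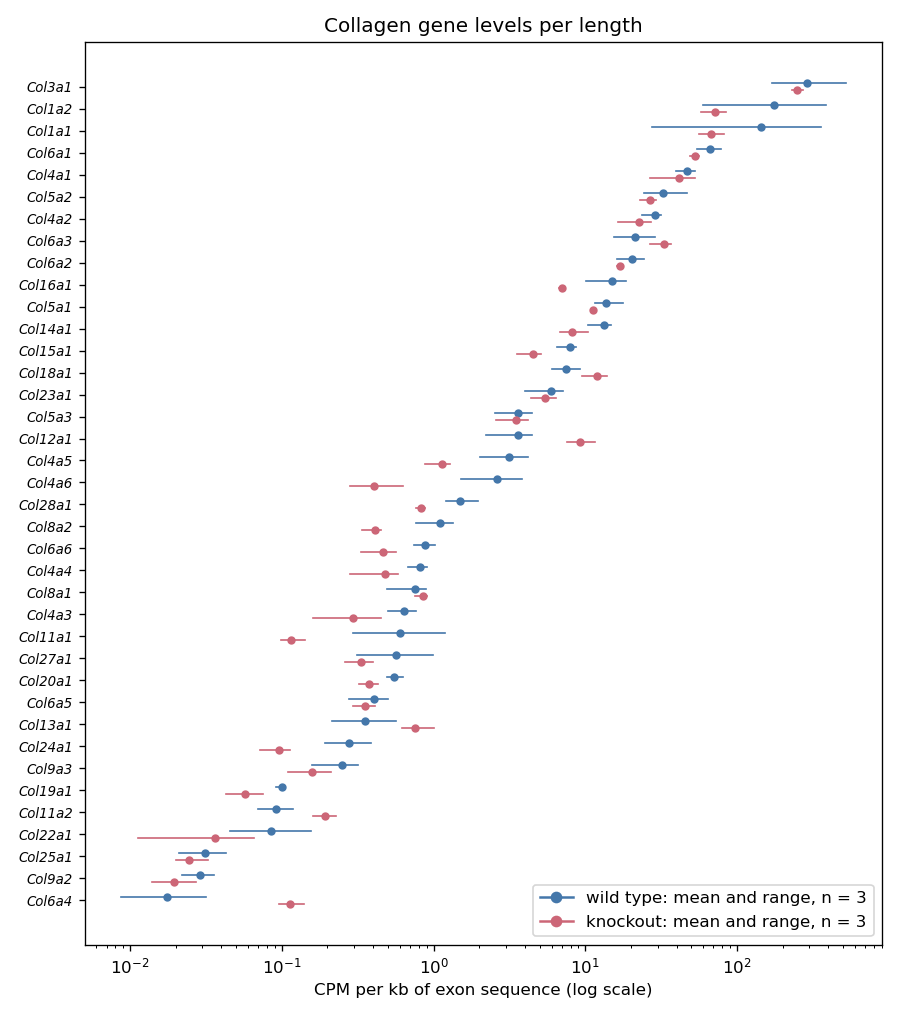
Level per kilobase of exon sequence (log axis) for all 38 collagen genes, ordered by the wild type mean, with points for means and lines from the lowest to the highest of 3 libraries. Col3a1, Col1a2 and Col1a1 are highest in both genotypes and have the longest wild type ranges among the abundant genes.

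Wild type replicate 1 decided how the type I and III chains compared. The collagen genes together took 1.57, 0.473 and 0.571% of gene counts in the wild type libraries and 0.558, 0.512 and 0.586% in the knockout libraries. The first wild type library was above every other, and the other five lay between 0.473 and 0.586%. Without Col1a1, Col1a2 and Col3a1 the share was 0.233 ± 0.0214% in wild type and 0.194 ± 0.0256% in knockout (SD, n = 3 each). The groups overlapped, with wild type replicate 2 at 0.209% and knockout replicate 3 at 0.216%. Those 3 genes made up 84.5% of the collagen counts in wild type replicate 1 and 55.8 to 67.6% elsewhere.

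Col1a1, the gene for the main chain of type I collagen, was at 2354, 180.3 and 317 CPM in wild type replicates 1 to 3 and at 537, 419.6 and 368 CPM in knockout. The knockout values lay inside the wild type range, and the log2 fold change was -1.11 ± 0.88 (SE), with adjusted p = 0.329 in edgeR's quasi-likelihood test. Without wild type replicate 1 it was 0.84, in the other direction, and still not called. Col1a2, which encodes the partner chain, was at 4839, 738 and 957 CPM in wild type and 1060, 890.4 and 719 CPM in knockout. Its log2 fold change of -1.29 (not called) became 0.08 without that library. Col3a1, the chain of the type III fibrils that mix with type I, was at 5122, 1733 and 1668 CPM in wild type and 2397, 2278 and 2685 CPM in knockout. With all libraries it was not called (log2 fold change -0.21), and without wild type replicate 1 it was called higher in knockout, at 0.54. Wild type replicate 1 was the only wild type library in which Y-linked counts exceeded those of Xist, as they did in knockout replicates 1 and 2. In every fit without it, genotype therefore partly goes with these transcripts, and the 2 cannot be fully told apart.

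Wild type replicate 1 exceeded both other wild type libraries more than 2-fold in 4 of the 37 tested collagen genes (Col1a1, Col1a2, Col3a1 and Col6a4), against 1.01% of all genes. The ratio to the mean of the other two wild type libraries was 9.47 for Col1a1, 5.71 for Col1a2, 3.01 for Col3a1 and 1.86 for Col5a2. Among the tested genes of the other lists, the same library was more than 2-fold above both others in 4 of 33 collagen-making genes and 3 of 12 collagen breakdown genes. Sparc, the collagen-binding matrix protein, was at 1890, 627 and 503 CPM in wild type and 394, 311 and 330 CPM in knockout, and was named after its values were seen. It was called lower at a log2 fold change of -1.55, and still called at -0.70 without wild type replicate 1. That call was lost without any 1 of the knockout libraries. Without wild type replicate 1, 3 collagen genes were called higher and 10 lower, where 20.1% and 20.2% of all genes were called in those directions. The median over collagen genes was then -0.38, and the fibrillar median turned from -0.51 to 0.09.

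**Figure D3:**
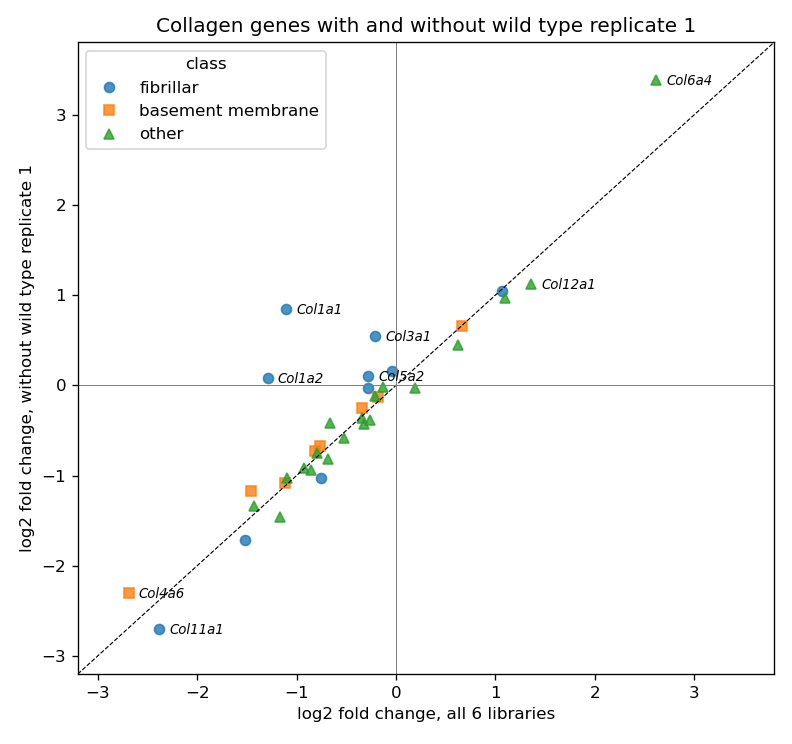
Log2 fold change of each tested collagen gene with all 6 libraries (x axis) and without wild type replicate 1 (y axis), with the dashed line at equality. Col1a1, Col1a2, Col3a1, Col5a2 and Col5a3 cross from below 0 to above 0, and Col8a1 crosses the other way. Col4a6, Col11a1, Col12a1 and Col6a4 stay on their side.

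The type V chains, which set the diameter of type I fibrils, did not pass the test. Col5a1 was at 152, 98.4 and 99.3 CPM in wild type and 92.1, 96.4 and 99.3 CPM in knockout, and Col5a2 at 452, 253 and 233 CPM and 275, 221 and 279 CPM. The highest library was again wild type replicate 1 for both. Their log2 fold changes were -0.28 and -0.28, and that of Col5a3 was -0.04. Without wild type replicate 1 they were -0.03 for Col5a1, 0.10 for Col5a2 and 0.16 for Col5a3, and none was called.

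The minor fibrillar genes held the 3 fibrillar calls. Col11a1, a chain of the type XI collagen best known from cartilage, was at 3.78, 4.04 and 15.1 CPM in wild type and 1.25, 1.82 and 1.31 CPM in knockout. All wild type values were above all knockout values, and wild type replicate 3 was far above the others. The log2 fold change was -2.38 ± 0.60 (adjusted p = 0.0173, edgeR's quasi-likelihood test), it was -1.40 without wild type replicate 3, and the call was lost without knockout replicate 1 or 3 and when the model held a term for libraries with Y-linked transcripts (the Y-linked term). The partner gene Col11a2 went the other way, from 0.600, 0.476 and 0.814 CPM to 1.29, 1.10 and 1.57 CPM, with a log2 fold change of 1.06 (adjusted p = 0.0276, same test). It rested on 56 counts in wild type and 86 in knockout, and its call was lost in 4 of the 6 fits that left out a library (each but those without wild type replicate 3 and knockout replicate 2). Col24a1, a fibrillar collagen known from developing bone, fell from 1.47, 1.90 and 2.96 CPM to 0.862, 0.551 and 0.783 CPM, with no overlap and a log2 fold change of -1.52; that call was lost without knockout replicate 2. Col27a1, also known from cartilage, was not called, at 4.05, 5.00 and 13.0 CPM in wild type and 5.17, 3.39 and 4.49 CPM in knockout. Here too wild type replicate 3 was the highest library. The log2 fold change of Col27a1 was -0.75 with all libraries and -0.04 without that library. That library was more than 2-fold above both other wild type libraries in 3 collagen genes (Col11a1, Col27a1 and Col13a1), against 1.93% of all genes, and its summed hair follicle markers were at 87.5 CPM against 8.56 to 14.6 CPM in the other five. The part of hair follicle content in these values was not tested.

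**Figure D4:**
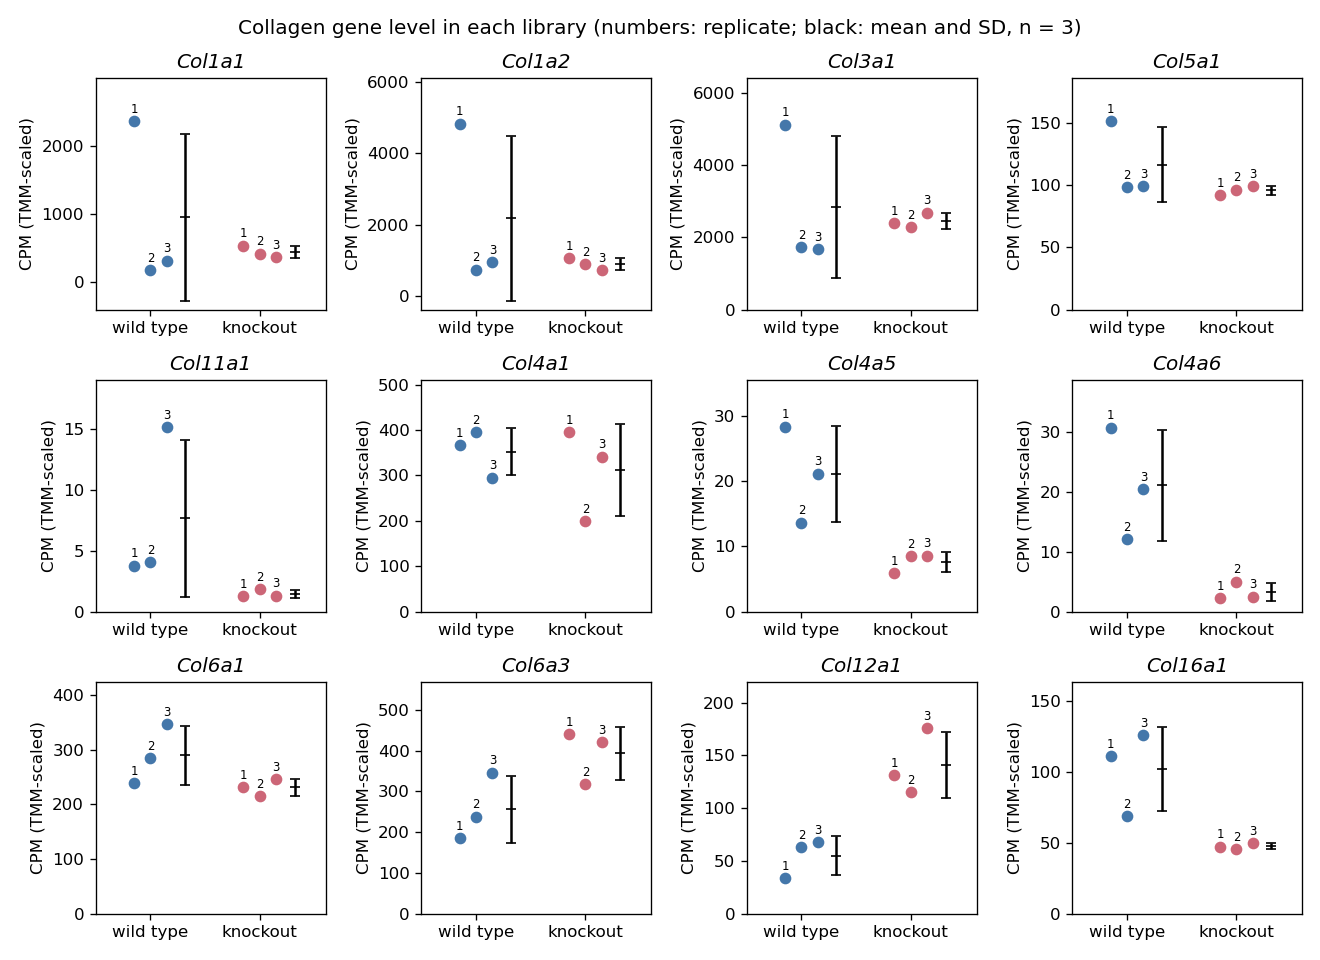
Level (TMM-scaled CPM, linear axes that differ between panels) of 12 collagen genes in each library, numbered by replicate, with the mean and SD of each group in black. Wild type replicate 1 is far above the rest for Col1a1, Col1a2 and Col3a1, and the 2 groups are apart for Col4a5, Col4a6, Col12a1 and Col16a1.

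Of the 8 basement membrane genes 4 fell and 1 rose, with a median log2 fold change of -0.79 (0.02 relative to fibroblast markers), and in 6 the groups did not overlap. Of all genes 22.7% fell, 22.3% rose and 59.8% did not overlap. The fall was largest for Col4a6, whose chain joins those of Col4a5 in the network of the skin and smooth muscle basement membrane. Col4a6 was at 30.7, 12.1 and 20.4 CPM in wild type and 2.24, 5.00 and 2.51 CPM in knockout, a log2 fold change of -2.69 ± 0.44 (adjusted p = 0.00389, edgeR's quasi-likelihood test). Every wild type value exceeded every knockout value more than 2-fold. Its neighbour Col4a5 was at 28.3, 13.6 and 21.1 CPM and 5.86, 8.51 and 8.57 CPM, with a log2 fold change of -1.46 ± 0.29 (adjusted p = 0.00769, same test). Both calls held without each library in turn, with the muscle and fat covariate and with the Y-linked term, and both genes lie on the X chromosome. Relative to fibroblast markers Col4a6 was still called lower and Col4a5 was not.

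The other type IV pairs had smaller log2 fold changes. Col4a1 and Col4a2, whose chains form the general basement membrane network, were at 352 ± 51.7 and 190.1 ± 28.4 CPM in wild type and 312 ± 102 and 149.5 ± 36.0 CPM in knockout (mean ± SD, n = 3), and neither was called. Knockout replicate 2 was the lowest library for both. Col4a3 and Col4a4 encode chains best known from the kidney glomerulus. Col4a3 was at 6.57, 7.68 and 5.00 CPM in wild type and 4.48, 1.61 and 2.77 CPM in knockout, and its call at adjusted p = 0.0454 (edgeR's quasi-likelihood test) was kept in only 1 of the 6 fits that each left out a library, the fit without knockout replicate 1, and was lost with the Y-linked term. Col4a4 was at 9.66, 9.07 and 7.26 CPM and 6.12, 3.01 and 6.16 CPM, without overlap, and was not called (log2 fold change -0.77).

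Types XV and XVIII, related proteins of the basement membrane zone, moved in opposite directions. Col15a1 fell from 55.4, 41.2 and 54.5 CPM to 32.3, 22.5 and 31.3 CPM (log2 fold change -0.81 ± 0.19, adjusted p = 0.0124, edgeR's quasi-likelihood test), and kept its call without each library in turn. Col18a1, whose C-terminal fragment is endostatin, rose from 51.5, 42.4 and 64.5 CPM to 87.1, 66.7 and 97.4 CPM (log2 fold change 0.67, adjusted p = 0.0316, same test). The groups did not overlap for either, but the Col18a1 call was kept only without wild type replicate 3 and without knockout replicate 2 when single libraries were left out.

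Among the other collagens, Col12a1 rose and Col14a1 and Col16a1 fell within the FACIT group. Col12a1, the gene for the fibril-associated type XII collagen of dense connective tissue, was at 33.8, 63.0 and 67.5 CPM in wild type and 131, 115 and 176 CPM in knockout. The lowest knockout value was well above the highest wild type value, with a log2 fold change of 1.36 ± 0.28 (adjusted p = 0.00897, edgeR's quasi-likelihood test). It was called in every alternative run. Col14a1, the closely related type XIV gene, was at 73.2, 102 and 103 CPM and 52.4, 72.7 and 47.7 CPM (log2 fold change -0.69), and its call was kept without wild type replicate 1 and without knockout replicate 2, and lost in the other four such fits and with the Y-linked term. Col16a1 was at 111, 68.5 and 126 CPM and 47.3, 45.3 and 49.8 CPM, with a log2 fold change of -1.10 ± 0.22 (adjusted p = 0.0075, same test), and kept its call without each library in turn. The 3 knockout values of Col16a1 lay within a few CPM of each other. Col9a3, Col19a1, Col20a1 and Col22a1 were at most 3.22 CPM in any library and were not called. For Col19a1 and Col20a1 the knockout values lay below the wild type values without overlap (log2 fold changes -0.80 and -0.53), and for Col9a3 and Col22a1 the groups overlapped. 

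Within type VI the balance of chains differed between the groups, with no overlap, without passing the test of the ratio. Col6a1 and Col6a2, which encode the short chains, were at 289.9 ± 53.9 and 168 ± 34.5 CPM in wild type and 231 ± 15.7 and 141 ± 5.26 CPM in knockout (mean ± SD, n = 3), and neither was called. Col6a3, which encodes the longest of the 3 main chains, was at 184, 238 and 345 CPM in wild type and 439.9, 318 and 421 CPM in knockout. It was not called with all libraries (log2 fold change 0.62, adjusted p = 0.0781, edgeR's quasi-likelihood test), but was called higher without wild type replicate 3, with the Y-linked term, with DESeq2 and relative to fibroblast markers. Within each library the ratio of Col6a3 to Col6a1 counts was 0.771, 0.836 and 0.997 in wild type and 1.90, 1.48 and 1.71 in knockout. The groups did not overlap, and the log2 difference was 0.96, with an exact two-sided permutation p = 0.1, the smallest that 3 against 3 can give. The Col6a2 to Col6a1 ratio was 0.579 ± 0.0126 in wild type and 0.610 ± 0.0232 in knockout (SD, n = 3, exact permutation p = 0.3).

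Col6a4, Col6a5 and Col6a6 encode chains that can take the place of the Col6a3 chain. Col6a4 had 9, 3 and 2 counts in the wild type libraries and 19, 21 and 23 in the knockout libraries, a log2 fold change of 2.61 (adjusted p = 0.00549, edgeR's quasi-likelihood test). The call held without each library in turn, but the wild type counts of replicates 2 and 3 were at or below 3, so the size is poorly fixed. Col6a6 fell from 8.04, 9.38 and 6.77 CPM to 3.06, 4.49 and 5.17 CPM (log2 fold change -0.93), with no overlap, and its call was lost without wild type replicate 2 or knockout replicate 2. Col6a5 was not called. Col28a1, a beaded filament collagen known from peripheral nerve, was at 6.33, 9.65 and 5.96 CPM and 3.75, 4.11 and 4.28 CPM (log2 fold change -0.85), and its call was lost without any 1 of the knockout libraries and with the Y-linked term. 

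Type VIII, the network-forming collagen of vessels and cornea, moved in 1 of its 2 chains. Col8a2 fell from 5.46, 3.43 and 6.00 CPM to 1.51, 2.03 and 1.98 CPM, with no overlap and a log2 fold change of -1.43 ± 0.28 (adjusted p = 0.00725, edgeR's quasi-likelihood test), and kept its call without each library in turn. Col8a1 was not called (5.88 ± 1.75 against 6.70 ± 0.646 CPM, mean ± SD, n = 3). Of the transmembrane genes none was called. Col13a1 was at 1.29, 0.985 and 2.59 CPM in wild type and 2.93, 2.84 and 4.65 CPM in knockout without overlap, and passed the test without wild type replicate 3, with the Y-linked term, with DESeq2, with limma voom and relative to fibroblast markers.

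Ratios within a library do not depend on the scaling between libraries, and 8 were compared, with no Benjamini-Hochberg adjusted p below 0.4. The Col4a6 to Col4a5 ratio, added after the values were seen, was 1.08, 0.888 and 0.965 in wild type and 0.382, 0.587 and 0.293 in knockout, a log2 difference of -1.27 without overlap (exact permutation p = 0.1). The ratio was lower in every knockout library than in any wild type library. The Col4a2 to Col4a1 ratio, by contrast, was 0.540 ± 0.0315 in wild type and 0.491 ± 0.0525 in knockout (SD, n = 3, exact permutation p = 0.3). The Col4a4 to Col4a3 ratio, also added after the values were seen, was 1.37 ± 0.162 in wild type and 1.82 ± 0.433 in knockout (SD, n = 3, exact permutation p = 0.3). Any link between the position of the gene starts and these ratios was not tested. The Col1a1 to Col1a2 ratio was 0.487, 0.244 and 0.331 in wild type and 0.506, 0.471 and 0.512 in knockout (exact permutation p = 0.2). Replicate 1 of the wild type lay inside the knockout range, and the other two wild type libraries below it. The Col3a1 to Col1a1 ratio ran from 2.18 to 9.61 in wild type and from 4.47 to 7.29 in knockout.

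**Figure D5:**
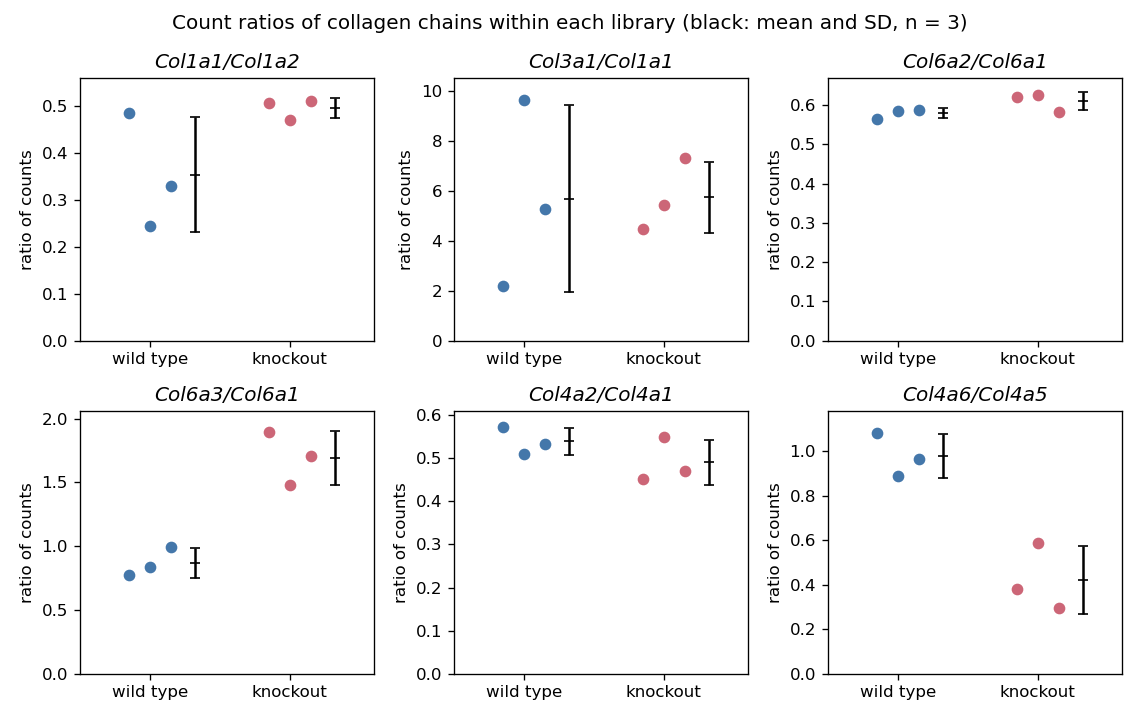
Ratio of counts (y axis, from 0) of 6 pairs of collagen genes in each library, with the mean and SD of each group in black. The groups separate for Col6a3 to Col6a1 and for Col4a6 to Col4a5 and overlap for the other four.

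Few of the genes that make and process procollagen were called. Of 33 tested collagen-making genes 2 were higher and 4 lower (median log2 fold change -0.22), against 22.3% and 22.7% of all genes. Relative to fibroblast markers 15 of the 33 were higher and 2 lower, where 57.6% of all genes were higher and 5.63% lower. P4hb, the disulfide isomerase that is also a subunit of prolyl 4-hydroxylase, rose from 384 ± 37.3 to 818 ± 16.5 CPM (SD, n = 3), and Ppib, a proline isomerase of procollagen folding, had a log2 fold change of 0.72. Fkbp7 and Adamts14, the latter a procollagen N-proteinase, fell, with log2 fold changes of -1.40 and -1.68. Of 14 genes for small proteoglycans and other organisers of fibrils 11 fell and none rose (median -1.07, and 5 fell relative to fibroblast markers), with Omd at -3.23, Kera at -4.70, Fmod at -1.81 and Aspn at -1.93. Relative to the 37 collagen genes, that list had a larger share of lower calls, a difference that was not tested. Of 9 tested collagen receptors 2 fell, Itga11 (-1.20) and Ddr2 (-0.98), a share close to the 22.7% of all genes. Relative to fibroblast markers 7 were higher and none lower, where 57.6% of all genes were higher.

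The remaining lists are to be read against 22.3% of all genes higher and 22.7% lower, and relative to fibroblast markers against 57.6% and 5.63%. Of 18 other basement membrane genes 9 fell and 1 rose (5 and 3 relative to fibroblast markers). Nid1, which links laminin to type IV collagen, had a log2 fold change of -1.34, and Lama2, the laminin chain of muscle and nerve, -1.08. Of 18 elastic and other matrix genes 9 fell, with Mfap4 at -3.10, and 3 rose (1 and 7 relative to fibroblast markers). Tnc, the wound-associated tenascin, went from 19.8 ± 2.69 to 807 ± 555 CPM (SD, n = 3). Of 12 tested collagen breakdown genes 4 rose and 1 fell (6 and 1 relative to fibroblast markers). Mmp8, the neutrophil collagenase, rose from 0.724 ± 0.210 to 21.1 ± 4.06 CPM and Mmp13 from 1.91 ± 1.12 to 12.5 ± 0.387 CPM (SD, n = 3). That list also holds inhibitors of these enzymes, and they differed in direction. Timp1 was called higher (log2 fold change 2.07) and Timp3 lower (-1.58). Of 16 regulators in TGF-beta signalling 2 rose and 5 fell (9 and 0 relative to fibroblast markers), so that 7 of 16 were called, near the 45.1% of all genes. The collagens that the rule leaves out, Col7a1 of the anchoring fibrils and Col17a1 of the hemidesmosome, were not called, at log2 fold changes of 0.18 and -0.22.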

How the data were processed

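Stranded total RNA libraries from 6 skin biopsies of separate mice were sequenced in pairs of 100-base reads, per the labels' protocols. The authors deposited raw counts per gene symbol, 1 table a library; each table also ended in 5 summary lines (unassigned reads and the like), 26.7 to 30.3% of its total, which were left out. The submitters' processing notes name the build mm9 and the tools STAR, BWA, HTSeq, CASAVA 1.7, R 3.2.3 and limma. Their order, settings, strand option and annotation are not given in the sources used here, so reads on overlapping genes may be shared (Col4a1 and Col4a2 overlap in 22 exon bases).

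The counts went into edgeR 4.0.16 under R 4.3.3: filterByExpr, TMM factors, the quasi-likelihood test of knockout against wild type without a block, Benjamini-Hochberg adjustment over 16691 genes and a threshold of 0.05. Pairs of genes were compared by count ratios with an exact two-sided permutation test (scipy 1.17.1). The code was tested on simulated data. A count of 3 in a library is 0.0968 to 0.154 CPM. Alternatives were other scalings, DESeq2 1.42.0, limma 3.58.1 voom, other filters, covariates, the replicate block, and leaving out each library. The term for Y-linked transcripts and the Col4a6/Col4a5 and Col4a4/Col4a3 ratios were added after the values were seen. Named genes were every member and, of each other list, up to 4 tested genes with the smallest p, plus Col7a1 and Col17a1. Sparc, Adamts2, Lox, Mmp2 and Ctsk fall outside this rule and were named after their values were seen. The members and lists were chosen with earlier results of these data known. Promoters are RefSeq, GRCm38.p6, and lengths GENCODE M21, GRCm38.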

Additional observations from a re-analysis of the deposited data

How the results depend on the processing

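Counts of calls below are collagen genes unless another set is named. Relative to fibroblast markers 9619 genes were higher and 939 lower, 8 collagen genes were higher and 2 lower, with 1 fibrillar and 1 basement membrane gene lower, 6 other collagens higher and 0 lower, 15 collagen-making genes higher and 2 lower, and a collagen median of 0.30. With the muscle and fat covariate 996 genes were higher and 835 lower, 1 collagen gene (1 other, 0 fibrillar, 0 basement membrane) was higher and 2 were lower (2 basement membrane, 0 fibrillar, 0 other); the 12 lost calls kept their sign, 8 with a log2 fold change as large or larger, all with a larger SE. Library totals alone gave 2 higher (0 fibrillar, 0 basement membrane) and 7 collagen-making genes lower. Over all genes that scaling gave 2490 higher and 4809 lower, where TMM gave 3730 and 3795. Upper-quartile factors gave 0 basement membrane genes higher, DESeq2 gave 4 other collagens higher, and the stricter filter 1, since Col6a4 was not tested there. Over all genes these 3 gave 3178, 4162 and 3496 higher and 4389, 3841 and 3608 lower, in that order. The Y-linked term gave 7 lower (1 fibrillar, 3 other), 4 other collagens higher and 7 collagen-making genes lower. With it 3267 of all genes were higher and 3149 lower. Without Col1a1, Col1a2 and Col3a1 the collagen share was 0.233% in wild type and 0.194% in knockout. The muscle and fat score did not overlap between the genotypes. The cause of these shifts was not tested.

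Leaving out each library in turn gave 2 to 6 collagen genes higher and 7 to 10 lower. Over all genes these fits gave 2792 to 3421 higher and 2679 to 3445 lower, where all 6 libraries gave 3730 and 3795. By class there were 0 to 1 fibrillar genes higher and 1 to 2 lower, and 0 to 1 basement membrane genes higher. Other collagens had 2 to 4 higher and 3 to 5 lower, and 2 to 4 collagen-making genes were higher. Log2 fold changes that changed sign in these fits ran from -1.60 to 0.84 for Col1a1, -1.71 to 0.083 for Col1a2, -0.47 to 0.54 for Col3a1, -0.44 to 0.10 for Col5a2, -0.23 to 0.16 for Col5a3, -0.38 to 0.084 for Col4a1, -0.36 to 0.025 for Col23a1, -0.025 to 0.34 for Col8a1, -0.11 to 0.44 for Col7a1 and -0.49 to 0.15 for Col17a1. The log2 difference ran from -0.34 to 0.73 for the Col3a1 to Col1a1 ratio and from -0.79 to 0.65 for Col5a2 to Col1a1.

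Relative to fibroblast markers the sign turned for Col14a1 (0.15), Col19a1 (0.015), Col20a1 (0.30), Col23a1 (0.64), Col25a1 (0.45), Col27a1 (0.091), Col3a1 (0.51), Col4a1 (0.66), Col4a2 (0.47), Col4a4 (0.053), Col5a1 (0.50), Col5a2 (0.49), Col5a3 (0.76), Col6a1 (0.51), Col6a2 (0.58), Col6a5 (0.61), Col9a3 (0.12) and Col17a1 (0.52). With the muscle and fat covariate it turned for Col4a1 (0.51), Col4a2 (0.13) and Col5a3 (0.38), and with limma voom for Col3a1 (0.0091). Replicate numbers are shared between the genotypes. The deviations of same-numbered libraries from their group means correlated at r = 0.01, -0.21 and 0.19 across genes. Differently numbered libraries ran from -0.29 to 0.26. With 3 libraries a group these values cannot settle whether the numbers mark a pairing. With the replicate block Col3a1 was at 0.0073, Col13a1 gained a call and Col4a3 lost its call, and 3323 genes were higher and 3142 lower. A few counts, as for Col6a4, Col9a2, Col22a1 and Col25a1, limit what these libraries can show.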

Other observations

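Genes that process or bind collagen were also high in wild type replicate 1, and are named after their values were seen. Adamts2, which trims procollagen, was at 228, 84.6 and 76.0 CPM in wild type replicates 1 to 3 and 105, 73.2 and 59.4 CPM in knockout. Lox, which cross-links collagen, was at 105, 45.8 and 33.2 CPM and 64.7, 52.1 and 38.2 CPM. Their log2 fold changes were -0.71 and -0.25 with all libraries and -0.0078 and 0.40 without wild type replicate 1, and neither was called. Mmp2, a gelatinase, was at 563, 192 and 183 CPM in wild type and 248, 184 and 149 CPM in knockout. It was not called, with a log2 fold change of -0.69 with all libraries and 0.062 without wild type replicate 1. Ctsk, a collagen-degrading protease, was at 631, 86.9 and 85.0 CPM in wild type and 459, 254 and 204 CPM in knockout, a log2 fold change of 0.19 with all libraries and 1.84 without wild type replicate 1.

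Knockout replicate 2 stood apart for fat: the 8 adipocyte markers summed to 31.9 CPM there, while the wild type sums ran from 1404 to 2464 CPM and the other two knockouts had 904 and 880 CPM. It was also the lowest of the 6 libraries for Col4a1, Col4a2, Col4a3, Col4a4 and Col15a1, at 199, 109, 1.61, 3.01 and 22.5 CPM. The part of fat content in these values was not tested.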
